A study of Mus musculus with 6 samples.

Results

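The Mir344 family is a group of 13 microRNA hairpins on mouse chromosome 7, and 3 of them, Mir344d-3, Mir344b and Mir344c, gave enough reads to be followed in mouse embryonic fibroblasts with and without Fbxw7. Members were chosen by read number: every row of the count table whose name begins with Mir344 and whose counts summed over all 6 libraries reached 30. This selected 3 of the 13 Mir344 rows, among 1155 microRNA rows in all. The summed counts that chose them were 382 for Mir344b, 327 for Mir344d-3 and 283 for Mir344c. The row just outside, Mir344g, had 10, so no row lay near the limit. Mir344b and Mir344d-3 were singled out in earlier work on these data for their difference between genotypes, and Mir344c was added here because it meets the same rule on summed counts.

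The cells are embryonic fibroblasts, connective tissue cells grown from mouse embryos in DMEM with fetal bovine serum and non-essential amino acids. Wild-type (WT) cells gave 3 libraries, and cells labelled Fbxw7 KO, which lack the gene for FBXW7, a substrate receptor of a ubiquitin ligase, gave another 3. The labels give no strain, embryo age, allele or way of deletion. They also do not say if replicates were different embryos or different dishes, so a p-value here speaks for the spread of the libraries alone, which may be technical. Counts of the Fbxw7 transcript were not analysed here, so the knockout was not checked.

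A microRNA is cut from a hairpin in a longer primary transcript by Drosha and Dicer, and one or both arms of the hairpin (the 5p and 3p arms) are loaded into Argonaute. The loaded strand pairs with target transcripts mainly through its seed, bases 2 to 8 from the 5′ end, so hairpins with a common origin can repress different targets once their seeds differ. Mir344 hairpins have been described mainly from rodent brain. They lie between Snrpn and Ndn in the part of mouse chromosome 7 that corresponds to the human Prader-Willi and Angelman syndrome region, where many genes are expressed from 1 parental chromosome only.

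The sequences show how far the 3 members resemble each other, and which of their arms can be told from copies elsewhere. All 13 rows matched a RefSeq hairpin (GRCm38.p6, minus strand). The mature arms of the members are given first, with the seed in capitals.
miR-344d-3-5p: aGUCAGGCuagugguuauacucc
miR-344b-5p: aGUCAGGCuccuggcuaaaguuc
miR-344c-5p: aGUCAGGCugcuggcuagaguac
miR-344d-3p: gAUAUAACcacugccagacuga
miR-344b-3p: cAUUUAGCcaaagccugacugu
miR-344c-3p: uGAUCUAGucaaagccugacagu
The 5p arms of all 3 members carry the same seed, which 6 of the family's 19 mature sequences share and no other mouse mature sequence among the 1679 in the table has. The 3p arms carry 3 different seeds. The seed of miR-344b-3p occurs in no other mature sequence, that of miR-344c-3p is shared with miR-344-3p, and that of miR-344d-3p is shared with miR-344e-3p and with miR-410-3p of another family. The row Mir410 stood at 0 counts in every library. Other rows of its cluster, such as Mir379, Mir409 and Mir369, held many reads in both genotypes. This 0 therefore does not show that miR-410-3p was absent, and its reason was not tested.

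The hairpins follow, with the mature arms in capitals, since a count is made over the whole hairpin.
Mir344d-3: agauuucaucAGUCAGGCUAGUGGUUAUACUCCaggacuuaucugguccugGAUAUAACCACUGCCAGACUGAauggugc
Mir344b: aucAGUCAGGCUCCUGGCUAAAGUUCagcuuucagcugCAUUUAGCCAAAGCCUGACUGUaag
Mir344c: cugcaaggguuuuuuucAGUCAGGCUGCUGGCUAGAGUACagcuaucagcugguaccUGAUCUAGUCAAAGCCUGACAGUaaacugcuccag
In global alignment the hairpins were 60.9% identical between Mir344b and Mir344c, 60.2% between Mir344d-3 and Mir344c and 60.0% between Mir344d-3 and Mir344b. No pair of members shared a run of more than 12 bases. Both arms of Mir344b and both arms of Mir344c were found in no other of the 2201 microRNA hairpins of GENCODE M21. The 3p arm of Mir344d-3 was found in 5 hairpins (Mir344d-1, Mir344d-2, Mir344d-3 and the loci Gm23490 and Gm23962) and in a spliced transcript of A230057D06Rik, while its 5p arm was found in Mir344d-3 alone. The longest run shared with any other hairpin was 51 bases for Mir344d-3, with Gm23490, against 21 bases for Mir344b and 19 bases for Mir344c. Counts do not separate the arms, and reads that align to several places are left out by the counting program unless it is told otherwise, so the value of Mir344d-3 in particular is uncertain.

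All 3 members are encoded in 1 intron of 1 annotated transcript of the lincRNA gene A230057D06Rik, on its strand. Coordinates follow the deposited table (mm10), and GENCODE M21 places all 13 rows identically, where for Mir344-2 only the first of its 2 intervals was compared. Mir344d-3 lies at chromosome 7, 61726249 to 61726328, Mir344b at 61790519 to 61790581 and Mir344c at 61837311 to 61837402, all on the minus strand. The intron spans 61714745 to 61911362 (196.6 kb). Mir344c is nearest to the 5′ end of this transcript, Mir344b follows after 46.7 kb and Mir344d-3 after a further 64.2 kb. Other transcripts annotated for A230057D06Rik have exons between these hairpins.

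Mir344b was higher in every Fbxw7 KO library than in any WT library. It had 35, 23 and 33 reads in WT replicates 1 to 3, and 70, 81 and 140 in Fbxw7 KO replicates 1 to 3, although the KO libraries were mostly smaller. Expressed as counts-per-million (CPM) values, scaled between libraries by edgeR's TMM factors, this was 7.02, 5.47 and 8.58 in WT and 22.1, 27.5 and 35.9 in Fbxw7 KO. The lowest KO library thus stood well above the highest WT library. The means were 7.02 ± 1.56 and 28.5 ± 6.94 CPM (SD, n = 3 each), a log2 fold change of 2.02 (SE 0.260, 95% interval 1.43 to 2.61, edgeR quasi-likelihood test, adjusted p = 0.00108 over the 283 rows tested). This was the sixth largest rise of the 283 rows. Summed over libraries, 291 KO reads against 91 WT reads gave a ratio of shares of 4.16, with a 95% interval of 3.28 to 5.33 that covers counting error only.

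Mir344d-3 was also higher in Fbxw7 KO, by a smaller factor and with more spread. The reads were 31, 49 and 39 in WT and 76, 73 and 59 in Fbxw7 KO, which scale to 6.22, 11.7 and 10.1 against 24.0, 24.8 and 15.1 CPM. The genotypes did not overlap, but Fbxw7 KO replicate 3, which held the most Mir344b, held the least Mir344d-3 of the KO libraries. With means of 9.34 ± 2.80 for WT and 21.3 ± 5.37 CPM for Fbxw7 KO (SD, n = 3 each) the log2 fold change was 1.19 (SE 0.294, 95% interval 0.52 to 1.86, edgeR adjusted p = 0.0185). The call ended without WT replicate 1 (0.96, edgeR adjusted p = 0.0737), without Fbxw7 KO replicate 1 (1.09, adjusted p = 0.0620) and without Fbxw7 KO replicate 2 (1.05, adjusted p = 0.0834). Mir344b kept its call in all 6 fits that left out a library (edgeR adjusted p up to 0.0132).

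Mir344c did not pass the test, and its values lay on the other side of 0. The reads were 66, 50 and 59 in WT and 33, 32 and 43 in Fbxw7 KO, which correspond to 13.2, 11.9 and 15.3 CPM against 10.4, 10.9 and 11.02 CPM. Every KO library was below every WT library, the nearest being 11.02 in Fbxw7 KO replicate 3 and 11.9 in WT replicate 2, while the counting intervals of single libraries overlapped. The means were 13.5 ± 1.74 and 10.8 ± 0.316 CPM (SD, n = 3 each), with a log2 fold change of −0.32 (SE 0.199, 95% interval −0.77 to 0.13, edgeR adjusted p = 0.263). The interval reaches from a fall to a slight rise and holds neither the 1.19 of Mir344d-3 nor the 2.02 of Mir344b.

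**Figure D1:**
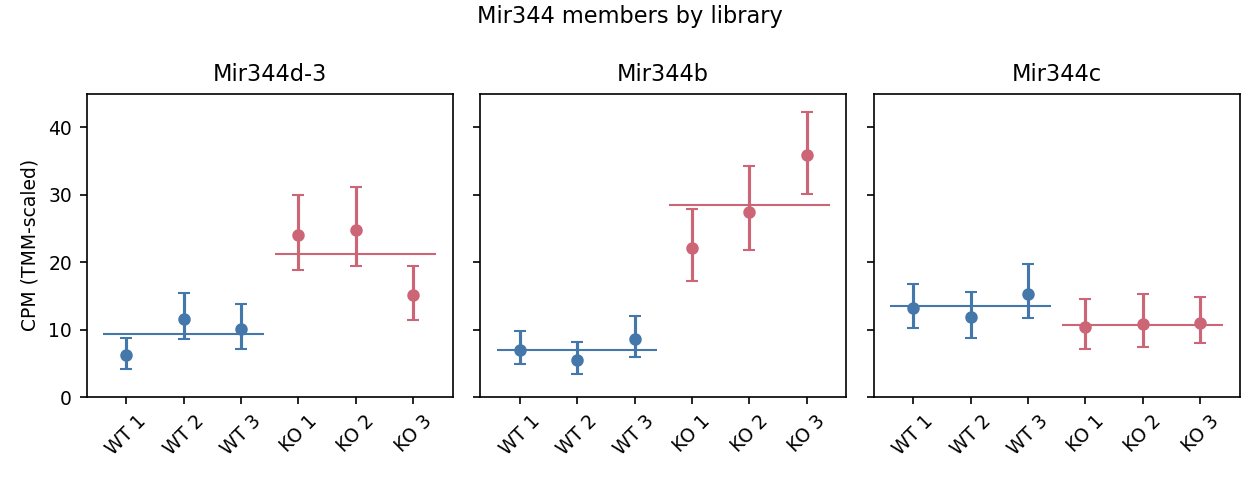
TMM-scaled CPM of Mir344d-3, Mir344b and Mir344c in each library, with 95% Poisson intervals for counting error as bars and the mean of each genotype as a line (blue, WT; red, Fbxw7 KO). The KO libraries lie at 15.1 to 24.8 CPM for Mir344d-3 and 22.1 to 35.9 for Mir344b, above all WT libraries, and at 10.4 to 11.02 for Mir344c, below them.

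Thus 2 of the 3 members rose and 0 fell. Those 2, Mir344b and Mir344d-3, had been singled out for their difference between genotypes in these same data. This count is therefore no test of the family against the shares that follow. Among all 283 tested rows 15.2% were called higher in Fbxw7 KO, 10.2% were called lower and 25.4% were called in either direction. With TMM factors taken from rows outside the Dlk1-Dio3 region, the calls over all rows were 30 higher and 34 lower in place of 43 and 29, and the same 2 members rose. The number of rows called also depended on single libraries. It fell from 72 (43 higher) to 42 (25 higher) without WT replicate 1, to 35 (20 higher) without WT replicate 2 and to 34 (19 higher) without Fbxw7 KO replicate 2. The genotypes did not overlap in 3 of 3 members, 2 higher and 1 lower in Fbxw7 KO, and this was common in the data, at 43.8% of tested rows (23.7% higher and 20.1% lower). All 3 members passed the filter on low counts, and each stood at 5.47 CPM or more in every library of both genotypes. Over all tested rows the median log2 fold change was 0.05.

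**Figure D2:**
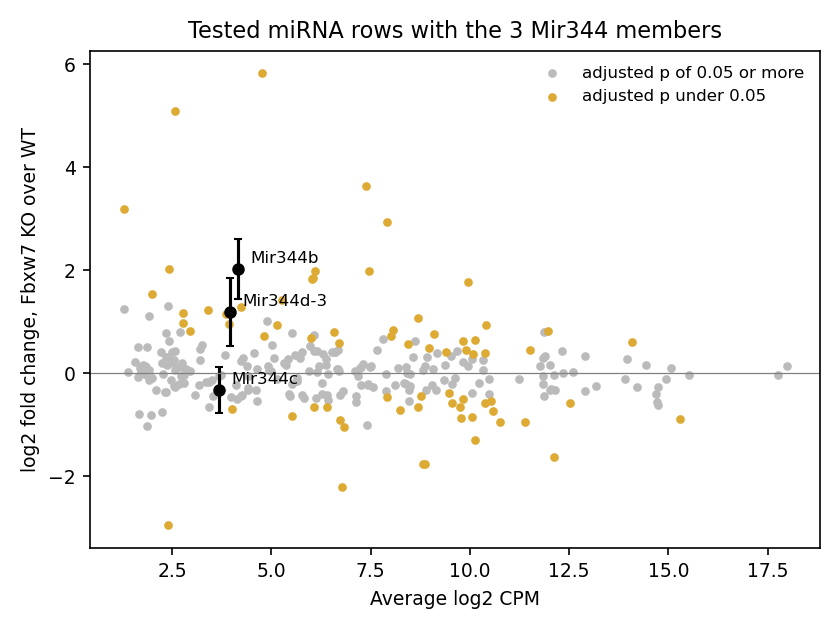
Log2 fold change between Fbxw7 KO and WT against average log2 CPM for the 283 tested rows (gold, edgeR adjusted p under 0.05; grey, others), with the 3 members in black and their 95% intervals. The members have similar abundance, but Mir344b lies at 2.02, Mir344d-3 at 1.19 and Mir344c at −0.32.

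Whether the members changed by the same factor was asked within libraries, since a ratio of 2 rows in 1 library does not depend on the scaling between libraries. The ratio of Mir344b to Mir344c reads was 0.530, 0.460 and 0.559 in WT replicates 1 to 3 and 2.12, 2.53 and 3.26 in Fbxw7 KO replicates 1 to 3. Mir344c was therefore the more frequent of both rows in every WT library and the less frequent in every KO library. The mean log2 ratio, with 0.5 added to each count, went from −0.95 ± 0.142 to 1.36 ± 0.311 (SD, n = 3 each), a difference of 2.31 or 4.96-fold (exact 2-sided permutation p = 0.1, which is the lower limit with 3 libraries a genotype).

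The ratio of Mir344d-3 to Mir344c moved the same way. It was 0.470, 0.980 and 0.661 in WT and 2.30, 2.28 and 1.37 in Fbxw7 KO, again without overlap. The mean log2 ratio rose by 1.51, from −0.57 ± 0.525 to 0.94 ± 0.423 (SD, n = 3 each, exact permutation p = 0.1, again the lower limit). Mir344b and Mir344d-3 were not set apart from each other in this way. Their ratio was 1.13, 0.469 and 0.846 in WT and 0.921, 1.11 and 2.37 in Fbxw7 KO, so that the genotypes overlapped, and the log2 ratio differed by 0.80 (exact permutation p = 0.3). Adjusted over these 3 ratios (Benjamini-Hochberg), the permutation p-values were 0.15, 0.15 and 0.3, so none of the 3 passed a threshold of 0.05, which this number of libraries cannot reach. The ratios with Mir344c were added after its counts had been seen.

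**Figure D3:**
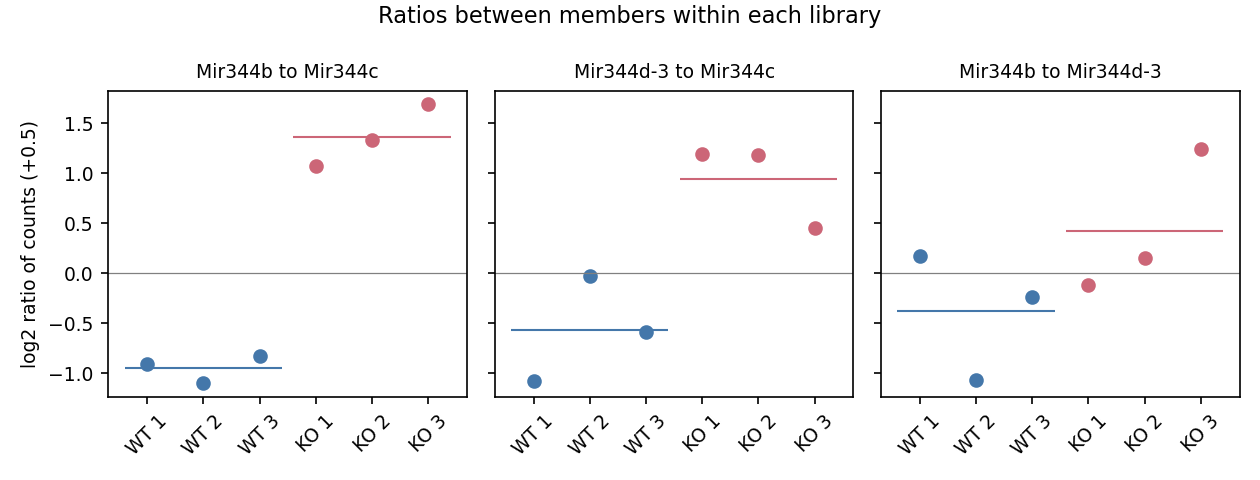
Log2 ratio of the read counts of 2 members within each library, with 0.5 added to each count, and the mean of each genotype as a line (blue, WT; red, Fbxw7 KO). The Mir344b to Mir344c ratio is below 0 in all WT libraries (−1.10 to −0.83) and above 0 in all KO libraries (1.07 to 1.69), while the Mir344b to Mir344d-3 ratio overlaps between genotypes.

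The make-up of the family's reads differed accordingly. Mir344c gave 49.6%, 40.0% and 43.7% of all Mir344 reads in WT replicates 1 to 3, and 18.3%, 17.1% and 17.3% in Fbxw7 KO. A share falls when other members rise, so this drop does not show a loss of Mir344c, which did not pass its own test. Mir344b went from 26.3%, 18.4% and 24.4% to 38.9%, 43.3% and 56.5%. Mir344d-3 gave 23.3%, 39.2% and 28.9% in WT and 42.2%, 39.0% and 23.8% in Fbxw7 KO, where the genotypes overlapped. The 13 rows summed to 26.7, 29.7 and 35.1 CPM in the WT libraries and to 56.8, 63.5 and 63.5 CPM in the KO libraries. Their means were 30.5 ± 4.26 and 61.3 ± 3.89 CPM (SD, n = 3 each), 2.01 times as high in Fbxw7 KO, and no test was made on this sum because its rows were chosen with results known.

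Per hairpin length the order of the members also changed. On the authors' FPKM scale Mir344c stood at 147, 123.8 and 166 in WT, Mir344d-3 at 79.4, 140 and 126, and Mir344b at 114, 83.2 and 136. These ranges overlapped, so the order Mir344c, Mir344d-3, Mir344b of the WT means was not separated by the spread. In Fbxw7 KO the FPKM of Mir344b was 357, 432 and 578, that of Mir344d-3 was 305, 307 and 192, and that of Mir344c was 115, 117 and 122. On this scale the order was the same in all 3 libraries, without overlap. For Mir344b and Mir344d-3 that separation depends on the division by length (63 and 80 bases). In CPM, Fbxw7 KO replicate 1 held more Mir344d-3 (24.0) than Mir344b (22.1). All 3 members were scarce. Among the 283 tested rows ordered by mean FPKM, Mir344b went from place 218 in WT to place 179 in Fbxw7 KO, Mir344d-3 from 214 to 194 and Mir344c from 206 to 219.

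The other 10 rows of the family held almost no reads, and the members held 98.4% of the family's counts. Mir344g, in an exon of the neighbouring transcript gene A330076H08Rik, had 0, 1 and 1 reads in WT and 1, 1 and 6 in Fbxw7 KO. Its ratio of shares was 5.21 with a 95% interval of 1.04 to 50.3 for counting error only, and 6 of its 8 KO reads came from replicate 3. Mir344i had 3 reads, all in WT replicate 3. Mir344d-2 had 2 reads and Mir344e had 1 read, all in WT, which is too few to compare. Mir344, Mir344-2, Mir344d-1, Mir344f, Mir344h-1 and Mir344h-2 stood at 0 in all 6 libraries.

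A row at 0 need not mean an absent microRNA where its arms are found in more than 1 hairpin. The clearest case is miR-344-3p, which shares its seed with miR-344c-3p.
miR-344-3p: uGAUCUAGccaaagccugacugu
This sequence is found in both Mir344 and Mir344-2, as is the 5p arm, and both rows stood at 0. Of the 5 rows in which no arm was found in a single hairpin only (Mir344, Mir344-2, Mir344h-1, Mir344h-2 and Mir344i), 4 stood at 0 and the highest held 3 reads. Of the 4 rows with 1 such arm, 1 stood at 0 and the highest was Mir344d-3 with 327 reads. Of the 4 rows with both arms found in 1 hairpin only, Mir344f stood at 0, Mir344g had 10 reads, and Mir344c and Mir344b had 283 and 382. Matches elsewhere in the genome were not searched, and whether shared sequence set these counts was not tested.

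**Figure D4:**
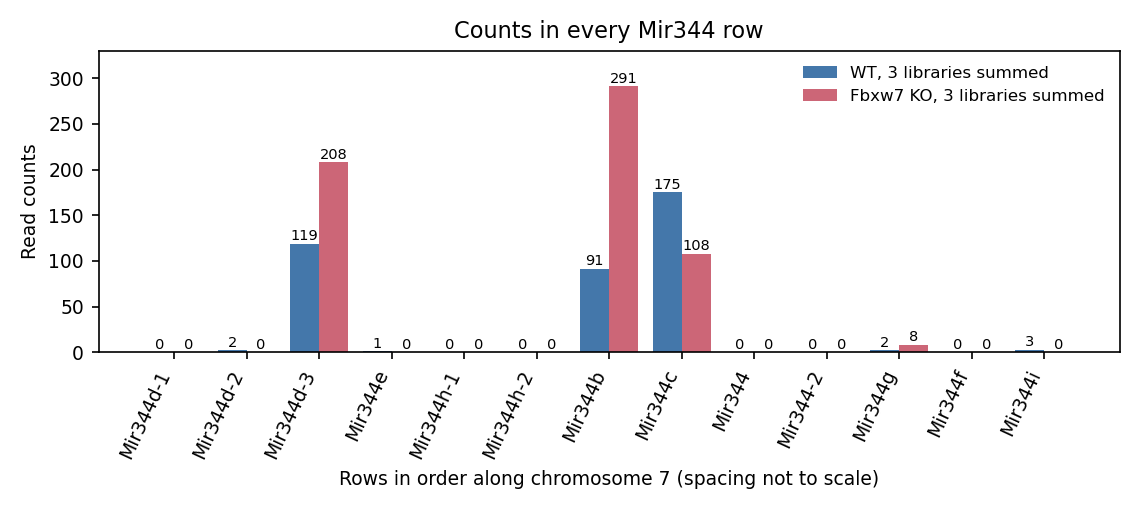
Read counts summed over the 3 libraries of each genotype for the 13 Mir344 rows, in their order along chromosome 7 (blue, WT; red, Fbxw7 KO; libraries differ in depth, so bars are not scaled). Only Mir344d-3, Mir344b and Mir344c exceed 10 reads in all, and Mir344c is the only one of these with fewer KO reads (108) than WT reads (175).

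Neighbouring microRNAs cut from 1 primary transcript tend to change together, so the spread within the family was set beside that of other neighbours. Neighbours were defined by strand and gap alone. Whether they share a primary transcript in these cells was not tested, for the Mir344 members or for the others. Pairs of tested rows on 1 strand with a gap of at most 150 kb numbered 837, of which 834 lay outside the family and 752 of these in the Dlk1-Dio3 imprinted region of chromosome 12. Their median difference in log2 fold change was 0.32 and the largest was 1.61, between Mir494 and Mir543 of that region. Mir344b and Mir344c differed by 2.35, more than any of the 834 pairs. Mir344d-3 and Mir344c differed by 1.51, exceeded by 1 pair, and Mir344d-3 and Mir344b by 0.83, exceeded by 59 pairs. Among the 82 pairs outside both regions the median was 0.31 and the largest 1.37, between Mir6944 and Mir6945. This comparison was chosen after the values were seen and is a description, because pairs share rows and the noise of a difference grows at low counts. Mir344b and Mir344d-3 had also been singled out for their difference between genotypes, while the other pairs were taken by position alone. A high place of the Mir344 pairs is therefore partly built in.

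**Figure D5:**
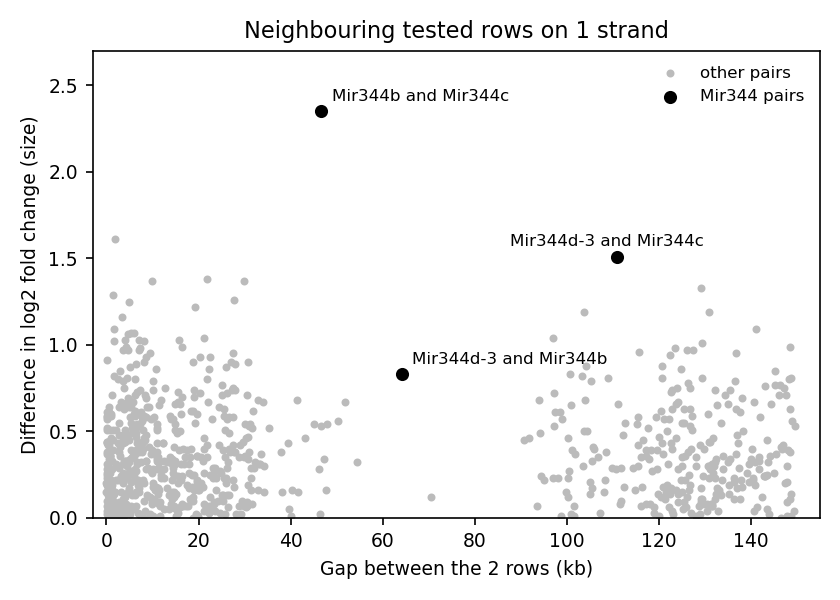
Size of the difference in log2 fold change between 2 tested rows on 1 strand, against the gap between them in kb, for 837 pairs (grey, other pairs; black, Mir344 pairs). Mir344b and Mir344c, 46.7 kb apart, differ by 2.35 and lie above all other pairs, of which the largest is 1.61. Mir344b had been singled out for its difference between genotypes, so this place is a description and no test.

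No other microRNA near the family could be tested. Within 3 Mb of it the table has Mir211, with 0, 4 and 3 reads in WT and 0 in each Fbxw7 KO library, and Mir6416, with 0 throughout. Elsewhere on chromosome 7, 10 of 70 rows were tested, 3 rose and 0 fell, with a median log2 fold change of 0.26. The rises were Mir210, the hypoxia-induced microRNA (2.93, edgeR adjusted p = 0.000666), Mir708 in an intron of Tenm4 (1.98, adjusted p = 0.00114) and Mir5121 (0.96, adjusted p = 0.0415). Over all 283 tested rows, 15.2% were called higher and 10.2% lower, with a median of 0.05. The chromosome was not tested as a set.

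Rows whose pattern was most like that of each member were found by Pearson's r of log2 CPM (prior count 1) over the 6 libraries, as a description. For Mir344b these were Mir31, Mir93, Mir5117, Mir23a and Mir582, with r of 0.97 to 0.99. With the genotype means removed, r was 0.92 for Mir31 and for Mir93, 0.73 for Mir23a, 0.69 for Mir5117 and 0.54 for Mir582. Mir344d-3 was most like Mir1298, Mir331, Mir3535, Mir147 and Mir217 (0.93 to 0.96, and 0.71 to 0.86 with the genotype means removed), in all of which Fbxw7 KO had the higher mean. Mir344c was most like Mir758, Mir365-2, Mir383, Mir328 and Mir433 (0.87 to 0.94), for which the values with the genotype means removed went from 0.56 for Mir328 and Mir433 to 0.94 for Mir365-2, all with the lower mean in Fbxw7 KO. The 3 lists share no row. Between the members, r was 0.76 for Mir344d-3 and Mir344b, −0.67 for Mir344b and Mir344c and −0.76 for Mir344d-3 and Mir344c. With the genotype means removed these became −0.55, 0.80 and −0.19. Only 6 points stand behind each r, they fall into 2 genotypes, and the members' counts are low. Removing the 2 genotype means leaves fewer independent values still, and the listed rows were picked for their high r.

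Because Mir344 hairpins are best known from brain, microRNAs typical of neurons were examined in the same libraries. Of 24 neuronal rows 5 stood at 0 and 10 were tested, of which 1 fell, 0 rose and the median log2 fold change was −0.13. The one that fell was Mir383 (−2.95, edgeR adjusted p = 0.00585), from 8.07 to 1.02 CPM, and next came Mir132 (−0.53, adjusted p = 0.0701). Over all tested rows 10.2% were called lower and 15.2% higher, with a median of 0.05. The rows of the defining neuronal hairpins held 0 reads for Mir9-1, Mir124a-1 and Mir124a-2, 1 read each for Mir9-2 and Mir9-3 and 9 reads for Mir124a-3 over all libraries. These hairpins are copies that make the same mature sequences, so, as for Mir344 and Mir344-2, the low counts do not show that the microRNAs were absent. The neuronal list held 0.106% to 0.133% of counts in WT and 0.0944% to 0.122% in Fbxw7 KO.

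The libraries held 2932439 to 5019700 counts. The fibroblast and mesenchymal list, with Mir21a and Mir143 among its 11 rows, held 54.6% to 55.8% of counts in WT and 57.0% to 60.0% in Fbxw7 KO. Of its 9 tested rows 3 rose and 1 fell, against 15.2% and 10.2% of all tested rows. Mir22 of this list stood at 0. Muscle rows held 0.0136% to 0.0405% of counts, all of it from Mir206, since the other 4 rows (Mir1a-1, Mir1a-2, Mir133a-1 and Mir133a-2, which are duplicated hairpins) stood at 0. Epithelial rows held 0.00168% to 0.00618% and blood cell rows 7.99e-05% to 0.000438% over all libraries, with Mir142 of the blood list at 0. Of these 3 lists only Mir206 and Mir203 were tested, and neither passed. The part of other cells in the Mir344 values was not tested. In cultured cells, fewer cells that make a microRNA and less of it per cell cannot be told apart.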

How the data were processed

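The members and lists were chosen with earlier results of these data known. Per the file headers, the authors counted reads over microRNA hairpins by gene name with featureCounts 1.6.4, ignoring strand, and deposited whole-number counts. Per the submitters' processing notes the build was mm10 and tools included TopHat2 2.1.1 and SAMtools 1.5. Trimming is not given in the sources used here. The FPKM values deposited by the authors equal the counts per length and per TMM-scaled total in 1155 of 1155 rows (relative difference up to 1e-06) and served for levels per length and for alternatives.

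From the counts, edgeR 4.0.16 (R 4.3.3, TMM, glmQLFit with robust estimation, glmQLFTest, 2-sided, genotype only) tested the 283 rows left by filterByExpr (minimum count 10, minimum total 15), with Benjamini-Hochberg adjustment and a threshold of 0.05. The SE was taken from the F statistic. Alternatives used DESeq2 1.42.0 and limma 3.58.1, other scalings and filters, each library left out and a replicate block. Library totals limit the precision, and intervals from counts cover counting error only. No 2 libraries were identical. Each member was described, with the other Mir344 rows and, per member, the 5 tested rows of highest Pearson r. Aligned identities came from Biopython 1.88. Mir410, Mir379, Mir409, Mir369, Mir494, Mir543, Mir6944 and Mir6945 were named after their values were seen, and Mir5121 as the last of a count of 3.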

Additional observations from a re-analysis of the deposited data

How the results depend on the processing

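Mir344b was higher in Fbxw7 KO with an adjusted p under 0.05 in all 16 alternatives (log2 fold change 1.83 to 2.17, adjusted p from 8.9e-12 to 0.0132), and Mir344c was lower without passing in all 16 (−0.45 to −0.24, adjusted p 0.117 to 0.609). Mir344d-3 stayed higher in all 16 and passed in 13. Leaving out 1 library moved it between 0.96 and 1.41, and the 3 libraries that ended its call are named in the report. The number of rows called, 72, was 34 to 78 when 1 library was left out, the low values being 42 (WT replicate 1 left out), 35 (WT replicate 2) and 34 (Fbxw7 KO replicate 2), in fits with fewer samples. With TMM factors from rows outside Dlk1-Dio3, 30 rows were called higher and 34 lower in place of 43 and 29, and the median of all rows moved from 0.05 to −0.07; Mir344b then had 1.89, Mir344d-3 1.06 and Mir344c −0.45. The labels do not say that equal replicate numbers pair libraries, so the numbers were not taken as pairs. Deviations of equal-numbered libraries correlated at −0.05, 0.14 and 0.16 for replicates 1 to 3. The highest values with a library of another number were 0.10, 0.15 and −0.07, so these values do not settle the pairing. With a replicate block 76 rows were called, and the log2 fold changes were 2.0 for Mir344b, 1.20 for Mir344d-3 and −0.32 for Mir344c. The log2 ratios kept their sign in all 9 alternatives each, at 2.15 to 2.45 for Mir344b to Mir344c, 1.25 to 1.77 for Mir344d-3 to Mir344c and 0.40 to 1.08 for Mir344b to Mir344d-3. The paired exact tests of the block gave p = 0.25, 0.25 and 0.5, where 3 pairs cannot go below 0.25. The family's summed CPM differed by 0.92 to 1.12 on the log2 scale. At 23 to 140 reads per library, differences of the size of that of Mir344c were not resolved.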
